A study of Mus musculus with 17 samples.

Results

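The genes described here encode the enzymes that build cholesterol and fatty acids, the proteins that control those enzymes, the sterol carrier Stard4 and the phosphatase Lpin1. They were taken from a list of 35 gene symbols. A listed gene was used if it reached a log2 value of 5 in 1 or more of the 6 deposited columns, by the row with the highest mean where a symbol had several rows. Of the 35 genes 34 were used, among 13065 of 38087 genes in the table that reached that value. Mlxipl, which encodes the sugar-sensing factor ChREBP, was the gene left out, with a highest value of 2.66 in Ly6C high cells on day 1. The gene nearest to the limit on the other side was Lss, with a highest value of 5.42.

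Expression was measured by sequencing of poly-A RNA from cells sorted out of the tibialis anterior, a leg muscle, of DBA/2J males at 3 months of age. All of the muscles had been injured with cardiotoxin, a venom toxin that kills muscle fibres, and no uninjured group was analysed here. The groups were neutrophils on day 1 (n = 2), Ly6C high macrophages on days 1, 2 and 4 (n = 3 each), and macrophages of the Ly6C low kind from days 2 and 4 (n = 3 each). No group carried an allele or treatment beyond the strain and the injury, as far as the labels say, and they do not say how many mice made up a sample. High surface Ly6C marks inflammatory macrophages that come from blood monocytes, and low Ly6C marks those that accompany repair. The table holds the authors' mean of log2 normalised reads for each group and none for single samples. A value therefore has no spread between samples, no difference could be tested, and a difference of 1 on the log2 scale (2-fold) was used as a mark of size only.

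Cholesterol is made from acetyl-CoA through mevalonate, the isoprenoid farnesyl diphosphate, squalene and lanosterol. Fatty acids are made from the same acetyl-CoA through malonyl-CoA to palmitate, which is then elongated and desaturated. Both branches are driven by the membrane-bound factors SREBP-1 and SREBP-2, encoded by Srebf1 and Srebf2, which the escort Scap carries out of the endoplasmic reticulum when sterols are low and which Insig1 and Insig2 hold back when sterols are high. In macrophages oxysterols also activate the LXR receptors, which raise genes of cholesterol efflux and of fatty acid desaturation.

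SREBPs act at promoters together with the CCAAT-binding factor NF-Y, so promoters are shown for the 5 enzymes of the sterol and fatty acid branches (Lpin1 not among them) with the widest range over the macrophage groups and a promoter sequence at hand, together with Hmgcs1, which was added after its match was seen. The sequences are RefSeq promoters on GRCm38.p6 and run 5′ to 3′ on the strand of the gene over the 250 bases before its RefSeq start. Capitals mark CCAAT in either orientation, CACGTG and TCACNCCAC, the last a form of the sterol response element.
Fads2: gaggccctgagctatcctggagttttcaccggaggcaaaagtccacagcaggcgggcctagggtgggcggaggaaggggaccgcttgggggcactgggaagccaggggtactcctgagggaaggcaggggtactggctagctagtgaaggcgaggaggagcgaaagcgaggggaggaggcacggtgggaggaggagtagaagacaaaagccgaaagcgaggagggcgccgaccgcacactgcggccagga
Idi1: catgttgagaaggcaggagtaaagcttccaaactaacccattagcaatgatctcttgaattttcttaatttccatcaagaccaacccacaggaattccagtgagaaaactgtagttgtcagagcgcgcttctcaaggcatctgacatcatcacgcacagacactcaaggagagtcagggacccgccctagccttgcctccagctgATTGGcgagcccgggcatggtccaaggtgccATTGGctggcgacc
Dhcr7: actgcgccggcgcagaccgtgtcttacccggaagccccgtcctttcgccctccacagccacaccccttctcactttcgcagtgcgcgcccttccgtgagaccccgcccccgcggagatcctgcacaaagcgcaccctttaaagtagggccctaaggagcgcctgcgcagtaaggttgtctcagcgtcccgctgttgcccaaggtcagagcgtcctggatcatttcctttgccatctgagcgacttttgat
Cyp51: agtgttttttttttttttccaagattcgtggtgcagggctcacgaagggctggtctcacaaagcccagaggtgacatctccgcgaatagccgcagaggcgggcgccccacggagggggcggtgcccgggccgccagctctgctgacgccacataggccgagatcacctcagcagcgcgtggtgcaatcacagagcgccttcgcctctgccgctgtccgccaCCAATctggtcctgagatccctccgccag
Hsd17b7: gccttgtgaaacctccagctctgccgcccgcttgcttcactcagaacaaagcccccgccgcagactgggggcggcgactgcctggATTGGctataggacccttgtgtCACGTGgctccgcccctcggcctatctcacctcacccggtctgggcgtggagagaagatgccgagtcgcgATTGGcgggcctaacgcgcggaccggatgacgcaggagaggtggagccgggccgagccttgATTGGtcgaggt
Hmgcs1: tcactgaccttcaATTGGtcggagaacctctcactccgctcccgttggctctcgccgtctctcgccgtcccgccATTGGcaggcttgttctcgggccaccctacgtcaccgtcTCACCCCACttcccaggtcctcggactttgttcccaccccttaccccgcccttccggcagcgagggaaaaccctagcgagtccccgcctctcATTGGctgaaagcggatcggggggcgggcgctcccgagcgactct
The regions are chr19:10101504-10101753 (minus strand) for Fads2, chr13:8885356-8885605 (plus strand) for Idi1 and chr7:143822917-143823166 (plus strand) for Dhcr7. Those of the other genes are chr5:4104698-4104947 (minus strand) for Cyp51, chr1:169969206-169969455 (minus strand) for Hsd17b7 and chr13:119690101-119690350 (plus strand) for Hmgcs1. For all but Hmgcs1 the RefSeq start lies inside the gene as GENCODE gives it, so that 22 (Dhcr7) to 243 (Fads2) of the 250 bases overlap the GENCODE coordinates printed with the genes. Of the 34 genes, 28 had a promoter in the table, and Sqle, Fdft1, Fdps, Stard4, Scd1 and Fads1 did not. Over 300 bases, from 250 before to 50 after the start and on both strands, CCAAT was found in 21 of the 28 promoters and in 12 of the 14 of sterol enzymes. It was found in 37.9% of all 27025 promoters, and in 38.4% of the 8441 promoters of genes that reached a log2 value of 5. Hsd17b7 and Hmgcs1 held several CCAAT matches, Idi1 held a pair, and Fads2 and Dhcr7 held none. TCACNCCAC was found in Hmgcs1 alone of the 28, and in 1.22% of all promoters. Its shorter form CACNCCAC, which each match of the longer form contains, was found in Hmgcs1, Acat2 and Insig1, and in 6.12% of all promoters. CACGTG was found in Hsd17b7, Sc5d, Insig1, Scap and Elovl5, and in 7.24% of all promoters. It was found in 10.6% of the promoters of genes that reached a log2 value of 5. A match of letters is not evidence of binding.

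Most sterol enzymes were highest among the macrophages in Ly6C high cells on day 2, and most were lower on day 4 than on day 2 in each subset. Among the 5 macrophage groups, 17 of the 34 genes had their highest value in Ly6C high cells on day 2, 11 of the 17 sterol enzymes among them. Over all 6 groups 7 of the 17 sterol enzymes were highest there and 7 were highest in neutrophils. Among the macrophage groups alone, the lowest value of 15 genes was in Ly6C low cells on day 4. Counts of highest and lowest groups, here and below, were not made over all genes. They therefore have no background share beside them and describe these genes only. A smaller set ran the other way and was highest on day 4, with the desaturases Scd1 and Fads2 highest in Ly6C high cells and Lpin1, Fads1 and Dhcr7 highest in Ly6C low cells. The range over the macrophage groups was less than 1 on the log2 scale for 19 of the 34 genes, which include 9 of the 17 sterol enzymes and 5 of the 10 enzymes of fatty acids.

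**Figure D1:**
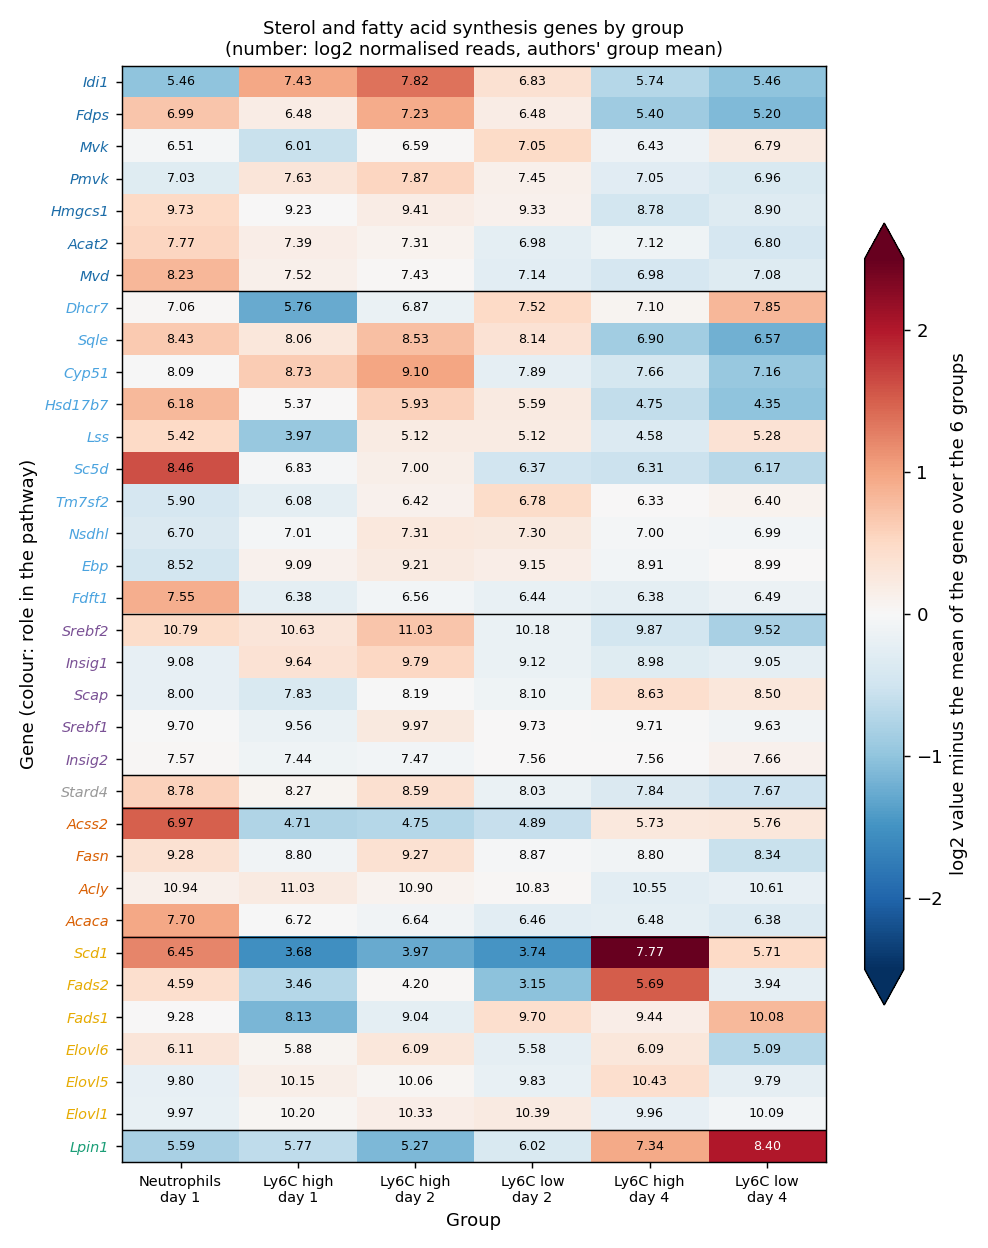
Rows are the 34 genes grouped by role and columns are the 6 groups, with the authors' log2 group mean printed in each cell and colour showing its distance from the gene's mean over the groups. Idi1, Fdps, Sqle and Cyp51 stand highest among macrophages in Ly6C high cells on day 2, and Scd1 stands highest in Ly6C high cells on day 4 at 7.77.

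Between days 2 and 4 in Ly6C high cells, 6 of 34 genes were at least 2-fold lower and 3 were at least 2-fold higher, where 2% of all genes compared were lower by that much and 14.3% higher. The 6 lower genes were Idi1, Fdps, Sqle, Cyp51, Hsd17b7 and Srebf2, and the 3 higher ones were Scd1, Fads2 and Lpin1. The median difference was −0.31 over the 34 genes and −0.54 over the 17 sterol enzymes, beside 0.01 over all genes. Of the sterol enzymes 16 of 17 lay below 0 (94.1%), against 49.0% of all genes, and Dhcr7 was the exception (after quantile normalization all 17 lay below 0). The genes reaching the limit through only 1 of the groups were Lss, Hsd17b7, Acss2, Scd1 and Fads2. In bulk RNA from sorted cells, fewer cells of a kind and less RNA per cell cannot be told apart.

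The early steps, from acetyl-CoA to farnesyl diphosphate, held the members furthest below day 2 on day 4 in Ly6C high cells, Idi1 and Fdps. Idi1 (ENSMUSG00000058258, chr13:8885501-8892451) encodes isopentenyl-diphosphate isomerase, which makes the isoprenoid unit that starts chain growth. It had log2 values of 5.46 in neutrophils, 7.43, 7.82 and 5.74 along the Ly6C high series (days 1, 2 and 4) and 6.83 and 5.46 along the Ly6C low series (days 2 and 4). Both day 4 values lay below all 3 earlier macrophage values, and Ly6C high cells on day 4 were 4.24-fold below those on day 2 (log2 difference −2.09, counting error 0.096). In Ly6C low cells the difference between the days was 2.57-fold.

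Fdps (ENSMUSG00000059743, chr3:89093588-89101959) encodes farnesyl diphosphate synthase, which joins isoprenoid units into the precursor of sterols and of protein prenyl groups. Its values were 6.99 in neutrophils, 6.48, 7.23 and 5.40 along the Ly6C high series (days 1, 2 and 4) and 6.48 and 5.20 along the Ly6C low series (days 2 and 4). The distance between days 2 and 4 was 3.55-fold in Ly6C high and 2.42-fold in Ly6C low cells. The counting error of each difference was 0.109 on the log2 scale, which does not cover the spread between mice.

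The remaining 5 genes of the early steps differed less. Hmgcs1, the synthase that forms HMG-CoA, went from 9.41 on day 2 to 8.78 on day 4 in Ly6C high cells and from 9.33 to 8.90 in Ly6C low cells. Mvk and Pmvk, the kinases that act in turn on mevalonate, Mvd, the decarboxylase after them, and Acat2, the thiolase at the start, were all lower on day 4 than on day 2 in both subsets, with log2 differences of −0.06 to −0.82. All 7 genes of the early steps thus lay below 0 in Ly6C high cells, with a median of −0.63, and 2 of them were at least 2-fold lower.

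Among the 10 enzymes from squalene to cholesterol, Sqle, Cyp51 and Hsd17b7 were at least 2-fold lower in Ly6C high cells on day 4. Sqle (ENSMUSG00000022351, chr15:59315077-59331192) encodes squalene epoxidase, which adds the first oxygen to squalene. Its values were 8.43 in neutrophils, 8.06, 8.53 and 6.90 along the Ly6C high series (days 1, 2 and 4) and 8.14 and 6.57 along the Ly6C low series (days 2 and 4). It was 3.09-fold lower on day 4 than on day 2 in Ly6C high and 2.98-fold lower in Ly6C low cells, nearly the same distance in both subsets.

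Cyp51 (ENSMUSG00000001467, chr5:4081145-4104746) encodes the demethylase that acts on lanosterol. Its values were 8.09 in neutrophils, 8.73, 9.10 and 7.66 along the Ly6C high series (days 1, 2 and 4) and 7.89 and 7.16 along the Ly6C low series (days 2 and 4). The distance between the days was 2.72-fold in Ly6C high and 1.66-fold in Ly6C low cells, where the value was already lower on day 2. Hsd17b7 (ENSMUSG00000026675, chr1:169949535-169969241), a sterol ketoreductase, had values of 6.18 in neutrophils, 5.37, 5.93 and 4.75 along the Ly6C high series (days 1, 2 and 4) and 5.59 and 4.35 along the Ly6C low series (days 2 and 4). It was 2.26-fold lower on day 4 in Ly6C high and 2.37-fold lower in Ly6C low cells.

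Dhcr7, the reductase that completes cholesterol by removing a ring double bond, followed another course. Its values were 7.06 in neutrophils, 5.76, 6.87 and 7.10 along the Ly6C high series (days 1, 2 and 4) and 7.52 and 7.85 along the Ly6C low series (days 2 and 4). It was higher on each later day in Ly6C high cells and higher in Ly6C low than in Ly6C high cells on both days, although its day 4 value in Ly6C high cells lay below its day 2 value after quantile normalization. Lss, which closes the rings of lanosterol, had values of 5.42 in neutrophils, 3.97, 5.12 and 4.58 along the Ly6C high series (days 1, 2 and 4) and 5.12 and 5.28 along the Ly6C low series (days 2 and 4). It crossed the limit of 5 by little in the groups that reached it.

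Sc5d, a desaturase of the sterol ring, and Fdft1, the squalene synthase, differed mainly between neutrophils and macrophages. Sc5d had values of 8.46 in neutrophils, 6.83, 7.0 and 6.31 along the Ly6C high series (days 1, 2 and 4) and 6.37 and 6.17 along the Ly6C low series (days 2 and 4). Fdft1 had values of 7.55 in neutrophils and of 6.38, 6.56, 6.38, 6.44 and 6.49 in the macrophage groups in the same order, a range of 0.18 over the macrophages. The other 3 enzymes, Nsdhl and Tm7sf2, which act after Cyp51, and the isomerase Ebp, ranged over less than 1 in the macrophage groups and were lower on day 4 than on day 2 in Ly6C high cells, with differences of −0.08 to −0.31.

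In Ly6C low cells between days 2 and 4, 4 of 33 genes were at least 2-fold lower and 2 were higher, beside 2.16% and 9.23% of all genes. The lower genes were Idi1, Fdps, Sqle and Hsd17b7, and the higher ones were Scd1 and Lpin1. All 6 were at least 2-fold apart in the same direction in Ly6C high cells. The median over the 17 sterol enzymes was −0.32, with 14 of 17 below 0, and the median over all genes was 0.03. Over both subsets 23 of the 34 genes were lower on day 4, 8 were higher and 3 had opposite signs. Overlaps between the subsets were not counted over all genes. They have no background share and describe these genes only.

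**Figure D2:**
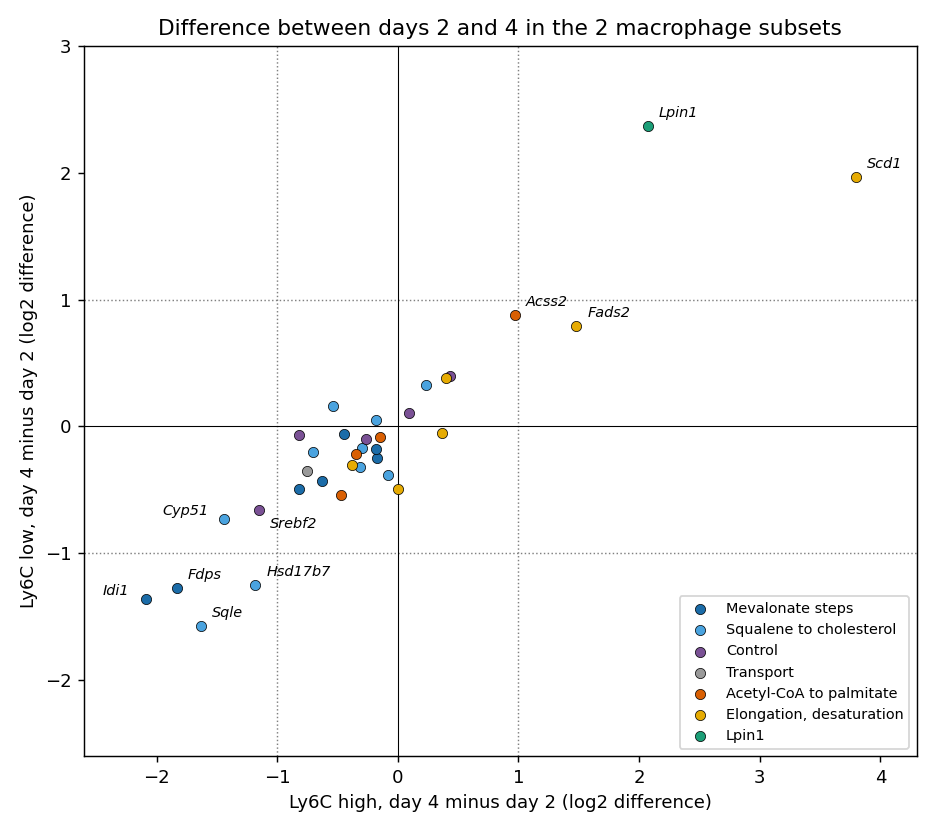
Each point is 1 of the 34 genes, with the log2 difference between days 4 and 2 in Ly6C high cells on the x axis and in Ly6C low cells on the y axis, and dotted lines mark 2-fold. Idi1, Fdps, Sqle and Hsd17b7 lie beyond 2-fold below 0 in both subsets, and Scd1 and Lpin1 lie beyond 2-fold above 0 in both.

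Of the 5 control genes used Srebf2 was the only one at least 2-fold apart in any pair of groups compared. Srebf2 (ENSMUSG00000022463, chr15:82147181-82205379), which encodes the SREBP that chiefly drives sterol genes, had values of 10.79 in neutrophils, 10.63, 11.03 and 9.87 along the Ly6C high series (days 1, 2 and 4) and 10.18 and 9.52 along the Ly6C low series (days 2 and 4). It was 2.22-fold lower on day 4 than on day 2 in Ly6C high and 1.58-fold lower in Ly6C low cells. It was 1 of 12 genes with the highest macrophage value in Ly6C high cells on day 2 and the lowest in Ly6C low cells on day 4, the others being 8 sterol enzymes, Stard4, Fasn and Elovl6.

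Srebf1, whose product chiefly drives fatty acid genes, had values of 9.70 in neutrophils, 9.56, 9.97 and 9.71 along the Ly6C high series (days 1, 2 and 4) and 9.73 and 9.63 along the Ly6C low series (days 2 and 4). Its transcripts were not separated by start site, so the SREBP-1a and SREBP-1c forms could not be told apart. Scap had values of 8.0 in neutrophils, 7.83, 8.19 and 8.63 along the Ly6C high series (days 1, 2 and 4) and 8.10 and 8.50 along the Ly6C low series (days 2 and 4). It was higher on day 4 than on day 2 in both subsets, by 0.43 and 0.40.

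Insig1 had values of 9.08 in neutrophils, 9.64, 9.79 and 8.98 along the Ly6C high series (days 1, 2 and 4) and 9.12 and 9.05 along the Ly6C low series (days 2 and 4). Insig2 had values of 7.57 in neutrophils, 7.44, 7.47 and 7.56 along the Ly6C high series (days 1, 2 and 4) and 7.56 and 7.66 along the Ly6C low series (days 2 and 4), a range of 0.23 over all 6 groups and the smallest of the 34 genes. Stard4, which carries cholesterol between membranes, had values of 8.78 in neutrophils, 8.27, 8.59 and 7.84 along the Ly6C high series (days 1, 2 and 4) and 8.03 and 7.67 along the Ly6C low series (days 2 and 4). Its highest and lowest macrophage groups were those of Srebf2.

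The fatty acid branch was mixed. Over its 10 enzymes the median difference between days 4 and 2 in Ly6C high cells was 0.19, with 5 above and 5 below 0, and it was −0.01 after quantile normalization. In Ly6C low cells 6 of 9 lay below 0, with a median of −0.08 (−0.23 after quantile normalization). Acly, which makes cytosolic acetyl-CoA from citrate, Acaca, which makes malonyl-CoA, and Fasn, the synthase of palmitate, were lower on day 4 in both subsets, with differences of −0.08 to −0.54. Acss2, which makes acetyl-CoA from acetate, had values of 6.97 in neutrophils, 4.71, 4.75 and 5.73 along the Ly6C high series (days 1, 2 and 4) and 4.89 and 5.76 along the Ly6C low series (days 2 and 4). It was thus higher on day 4 in both subsets, by 0.97 and 0.88, just short of 2-fold.

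Scd1 (ENSMUSG00000037071, chr19:44394455-44407879), the desaturase that makes oleate and palmitoleate, showed the largest difference of the 34 genes. Its values were 6.45 in neutrophils, 3.68, 3.97 and 7.77 along the Ly6C high series (days 1, 2 and 4) and 3.74 and 5.71 along the Ly6C low series (days 2 and 4). Ly6C high cells on day 4 were 13.9-fold above those on day 2 (log2 difference 3.80, counting error 0.166), and Ly6C low cells were 3.92-fold above. The 3 earlier macrophage values lay below 5, and both day 4 values lay above it.

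Fads2 (ENSMUSG00000024665, chr19:10062765-10101746), which carries out the first desaturation of polyunsaturated fatty acids, had values of 4.59 in neutrophils, 3.46, 4.20 and 5.69 along the Ly6C high series (days 1, 2 and 4) and 3.15 and 3.94 along the Ly6C low series (days 2 and 4). Only its value in Ly6C high cells on day 4 exceeded 5, 2.80-fold above day 2 (less than 2-fold after quantile normalization). Fads1, the desaturase that acts after Fads2, had values of 9.28 in neutrophils, 8.13, 9.04 and 9.44 along the Ly6C high series (days 1, 2 and 4) and 9.70 and 10.08 along the Ly6C low series (days 2 and 4). In contrast with Scd1 and Fads2, it was higher in Ly6C low than in Ly6C high cells on both days. The elongases Elovl1, Elovl5 and Elovl6 ranged over 0.43, 0.65 and 1.02 across the 6 groups, none 2-fold apart in any comparison.

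Lpin1 (ENSMUSG00000020593, chr12:16535669-16610966) encodes a phosphatidate phosphatase of triglyceride and phospholipid synthesis. Its values were 5.59 in neutrophils, 5.77, 5.27 and 7.34 along the Ly6C high series (days 1, 2 and 4) and 6.02 and 8.40 along the Ly6C low series (days 2 and 4). The day 4 values were 4.20-fold above day 2 in Ly6C high and 5.17-fold above in Ly6C low cells. Both lay above all 3 earlier macrophage values.

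Summed markers of fibroblasts and muscle were also higher on day 4 than on day 2 in both subsets, and those of neutrophils were not. Those of endothelium and fat were much higher in Ly6C high cells and little higher in Ly6C low cells. The 10 fibroblast markers summed to log2 values of 6.15 to 10.5 in the other 4 groups, 15.9 in Ly6C high and 13.9 in Ly6C low cells on day 4, and all 10 were above 5 in both day 4 groups. The 10 endothelial markers summed to 12.6 in Ly6C high cells on day 4 and to 8.51 to 10.2 elsewhere. In Ly6C low cells they summed to 8.51 on day 2 and 8.98 on day 4. The 10 neutrophil markers summed to 11.05 and 10.95 on days 2 and 4 in Ly6C high cells and to 11.32 and 11.14 in Ly6C low cells. The largest value in each was that of Csf3r, 10.29 and 10.72 in Ly6C high and 10.34 and 10.93 in Ly6C low cells. In Ly6C high cells 3 of the 5 neutrophil markers compared were at least 2-fold lower on day 4 and 1 was higher. In Ly6C low cells 4 of 6 were lower and 0 higher. The shares of all genes that much lower were 2% and 2.16%. The 8 macrophage markers summed to 17.8 and 18.3 on day 4 and to 17.9 in both subsets on day 2. Single markers differed more than these sums. In Ly6C high cells Cd14 and Mrc1 (2 of 8) were at least 2-fold lower on day 4 and 0 were higher. In Ly6C low cells Csf1r and Mertk (2 of 8) were that much higher, beside 9.23% of all genes, and Mrc1 (1 of 8) was lower. The 20 cell cycle genes summed to 11.8 in Ly6C high and 13.0 in Ly6C low cells on day 2 and to 12.3 and 13.1 on day 4. In Ly6C high cells 11 of 20 were at least 2-fold higher on day 4 and 0 lower, beside 14.3% and 2% of all genes. In Ly6C low cells 3 of 20 were that much higher and 0 lower, with 12 above and 8 below 0.

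Scd1 and Lpin1 are also expressed in fat, and Lpin1 in muscle. The 10 adipocyte markers summed to 3.45 to 5.25 in the 4 groups of days 1 and 2, where each gene at 0 adds 1 on the linear scale, to 7.43 in Ly6C high cells on day 4 and to 4.33 in Ly6C low cells on day 4. In Ly6C high cells on day 4 Adipoq was 4.21, Plin1 4.73, Aqp7 5.02 and Car3 6.42, Plin4 was 1.5, Cidec 0.86 and Cfd 0.03, and Retn was at 0, while Lep and Adrb3 were at 0 in all 6 groups. The 10 muscle markers summed to 4.96 and 5.12 on day 2 and to 7.94 in Ly6C high and 9.02 in Ly6C low cells on day 4. The part of these cell types in the values of Scd1, Fads2, Lpin1 and the sterol enzymes was not tested.

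**Figure D3:**
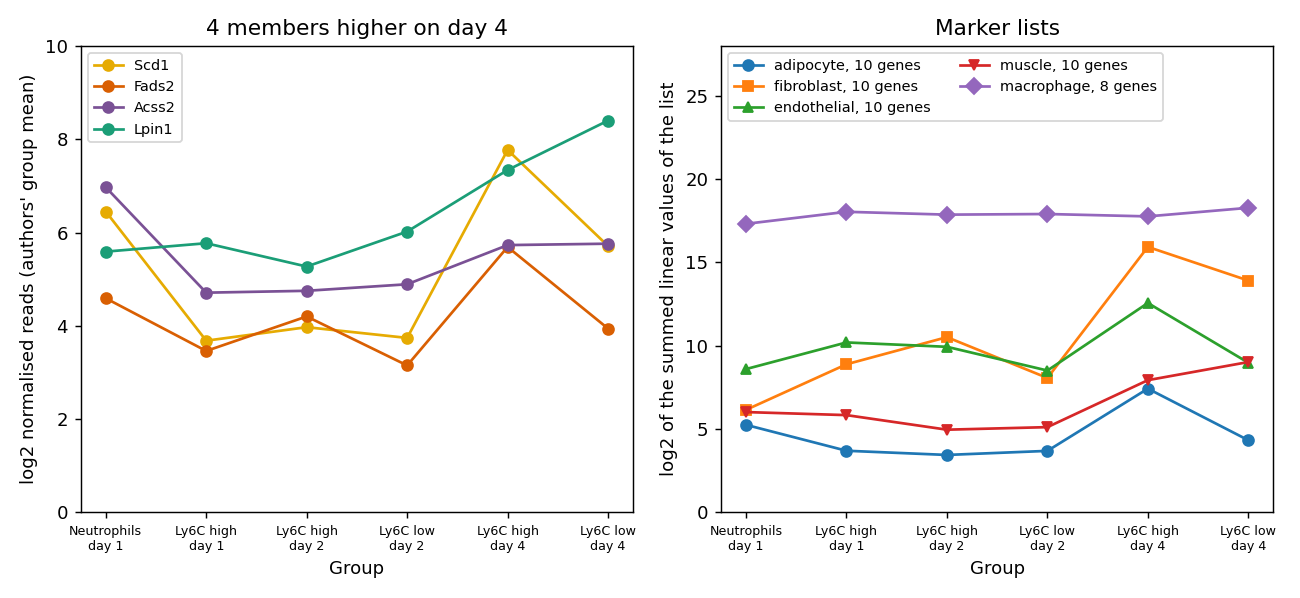
The left panel shows the log2 group means of Scd1, Fads2, Acss2 and Lpin1 in the 6 groups, and the right panel shows the log2 of the summed linear values of 5 marker lists in the same groups. Scd1 (7.77) and Fads2 (5.69) peak in Ly6C high cells on day 4, as do the adipocyte (7.43), fibroblast (15.9) and endothelial (12.6) lists. Lpin1 (8.40) peaks in Ly6C low cells on day 4, as do the muscle (9.02) and macrophage (18.3) lists.

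The 2 subsets were compared on the same day. On day 2, 1 of 31 genes was at least 2-fold lower in Ly6C low than in Ly6C high cells and none was higher, beside 4.03% and 3.71% of all genes. The lower gene was Cyp51, at 2.31-fold, and Idi1 stood at the limit with 2.00-fold. The median over the 17 sterol enzymes was −0.28, with 14 of 17 below 0, and over all genes it was −0.03. On day 4, 1 of 33 genes was at least 2-fold higher in Ly6C low cells and 2 were lower, beside 2.44% and 8.93%. Lpin1 was 2.08-fold higher, Scd1 was 4.17-fold lower and Fads2 was 3.36-fold lower. None of the 16 sterol enzymes compared was 2-fold apart on day 4, with 8 above and 8 below 0 and a median of 0.03 (0.14, with 13 above 0, after quantile normalization).

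The subset difference on day 4 minus that on day 2 was at least 2-fold for 1 of 34 genes, Scd1, at −1.83, beside 6.09% of all genes in that direction and 0.967% in the other. For the 17 sterol enzymes its median was 0.20, with 12 above 0 (0.43, with all 17 above 0 and Idi1 and Lss past 2-fold, after quantile normalization). This value and the 2 subset comparisons share their groups, so they are the same measurements seen in another way.

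Within Ly6C high cells from day 1 to day 2, 2 of 31 genes were at least 2-fold higher and none was lower, beside 1.41% and 1.1% of all genes. They were Lss, below 5 on day 1, and Dhcr7, at 2.22-fold and 2.17-fold, and neither reached 2-fold after quantile normalization. The remaining differences were small but mostly of 1 sign, since 15 of the 17 sterol enzymes were above 0 with a median of 0.34. Over all genes 48.8% were above 0 with a median of −0.01. From day 1 to day 4, 4 of 33 genes were at least 2-fold lower, which were Sqle, Fdps, Idi1 and Cyp51, and 6 were higher, which were Dhcr7, Acss2, Scd1, Fads1, Fads2 and Lpin1. The background was 3.97% lower and 17.6% higher, so the share of higher genes was close to that of all genes. Among the higher genes Acss2, Scd1 and Fads2 lay below 5 on day 1 and were compared through their day 4 values alone. These comparisons share the Ly6C high columns, and the day 2 values enter the differences of both intervals.

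Genes of the same pathways outside the list were counted as well. Of 17 further genes of sterol and isoprenoid synthesis and handling, 1 lay at least 2-fold below, and none above, in Ly6C high cells on day 4 compared with day 2. Over all genes 2% were lower by that much. It was Sc4mol, a sterol methyl oxidase, with 9.36 on day 2 and 8.33 on day 4. Of 23 further genes of fatty acid and glycerolipid synthesis compared in Ly6C high cells, 2 were at least 2-fold higher (beside 14.3% of all genes) and none lower. They were Scd2, another desaturase, with 8.81 and 10.36, and Agpat3, an acyltransferase of phospholipid synthesis, with 7.99 and 9.22.

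Genes of the LXR receptors and cholesterol efflux were counted beside them. In Ly6C high cells 4 of the 7 were at least 2-fold higher on day 4 than on day 2, beside 14.3% of all genes, and Abcg1, an efflux transporter, had values of 8.94 on day 2 and 11.27 on day 4.

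Neutrophils and Ly6C high macrophages of day 1 were compared last. Of 33 genes 7 were at least 2-fold lower in the macrophages and 1 was higher, beside 16.1% and 16.6% of all genes. The lower genes were Fdft1, Lss, Dhcr7, Sc5d, Acss2, Scd1 and Fads1, and Idi1 was higher. Of these, Lss, Acss2 and Scd1 lay below 5 in the macrophages and were compared through their neutrophil values alone. The median over the 33 genes was −0.37, and over all genes it was 0.08. The 7 lower genes belong to both branches, but their share of the 33 is not far above that of all genes. The count therefore describes these genes only. The largest distances were those of Scd1 (6.80-fold), Acss2 (4.78-fold) and Sc5d (3.09-fold), while Idi1 was 3.92-fold higher. Of the 34 genes 12 had their highest value of all groups in neutrophils.

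The neutrophil column held markers of both cell types. Ly6g was 3.48 there and 0 in all macrophage groups, and the 10 neutrophil markers summed to 16.3, against 11.8 in Ly6C high cells on day 1. The 8 macrophage markers summed to 17.3 in the neutrophil column and to 18.0 in Ly6C high cells on day 1. Of the 8, Fcgr1, Cd14 and Mrc1 (3 genes) were at least 2-fold higher in the Ly6C high cells, beside 16.6% of all genes. None was that much lower, and Csf1r was 13.27 in the neutrophil column and 13.52 in the Ly6C high cells. The 20 cell cycle genes summed to 13.3 in neutrophils and to 11.3 in Ly6C high cells on day 1. The part of other cells in the neutrophil values was not tested.

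**Figure D4:**
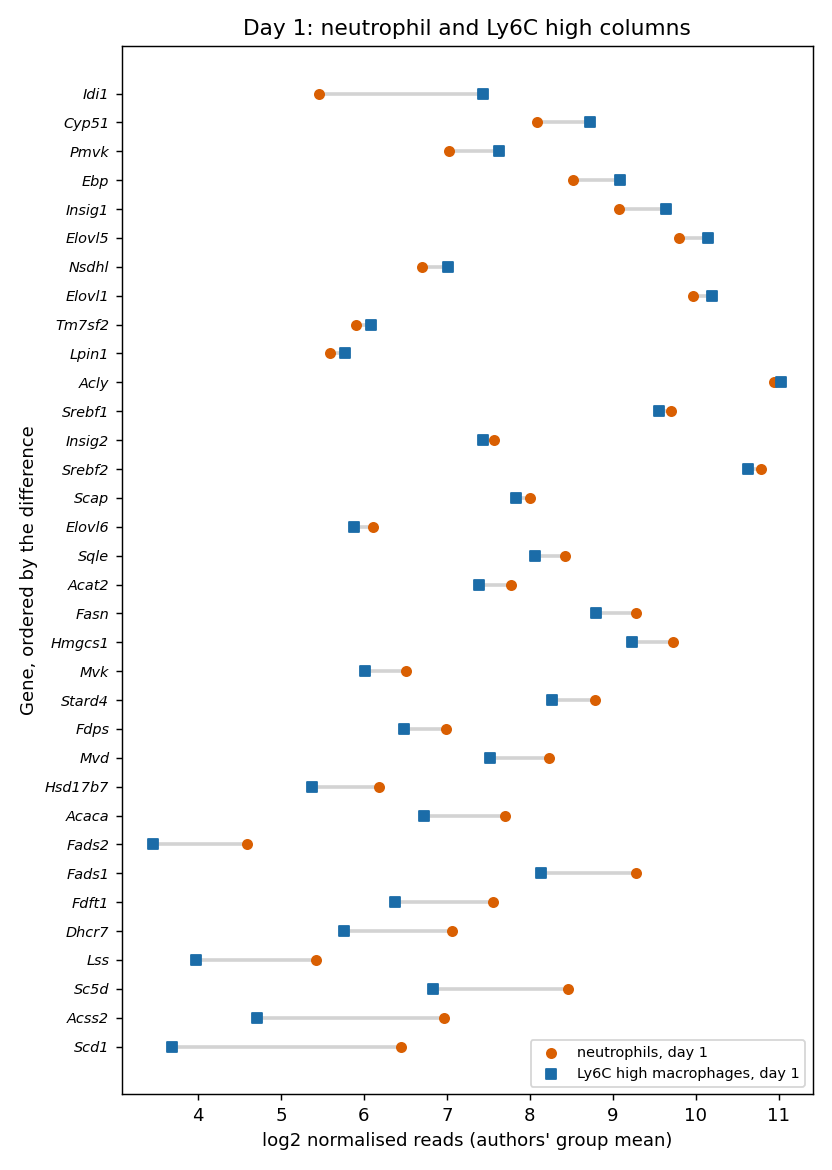
Each row is 1 of the 34 genes, ordered by the difference, with the authors' log2 group mean in neutrophils (circles) and in Ly6C high macrophages (squares) on day 1. Scd1 (6.45 against 3.68) and Acss2 (6.97 against 4.71) lie at the end where neutrophils are higher, and Idi1 (5.46 against 7.43) lies at the other.

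Some of these genes have near-identical copies between which reads can be split. Fdps has 3 processed pseudogenes in the table that match its transcripts over 1062 or 1066 bases. The closest, Gm3571 (98.9% identity over 1062 bases), had values of 3.33 in neutrophils, 7.32, 8.15 and 6.21 along the Ly6C high series (days 1, 2 and 4) and 7.50 and 6.15 along the Ly6C low series (days 2 and 4). Its course over the macrophage groups had the same highest and lowest group as that of Fdps, but its neutrophil value was far below. With the 3 copies added on the linear scale, the Fdps difference between Ly6C high cells on day 1 and neutrophils was 1.07 in place of −0.51. The difference between days 4 and 2 was −1.92 in Ly6C high and −1.34 in Ly6C low cells, beside −1.83 and −1.27 for Fdps alone.

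Idi1 has 1 such copy in the table, Gm13502 (100% identity over 684 bases), with values of 5.44 in neutrophils, 6.23, 6.56 and 4.69 along the Ly6C high series (days 1, 2 and 4) and 5.48 and 4.04 along the Ly6C low series (days 2 and 4). With the copy added, Idi1 differed between days 4 and 2 by −2.03 in Ly6C high and −1.40 in Ly6C low cells, and between Ly6C high cells of day 1 and neutrophils by 1.51. The lower day 4 values of both genes were thus present with and without the copies. Acat2 shares 1477 bases at 97.7% identity with its paralog Acat3, and Fdft1, Tm7sf2 and Acat2 share transcript bases with their neighbours Ctsb, Vps51 and Tcp1, so their values are less certain.

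**Figure D5:**
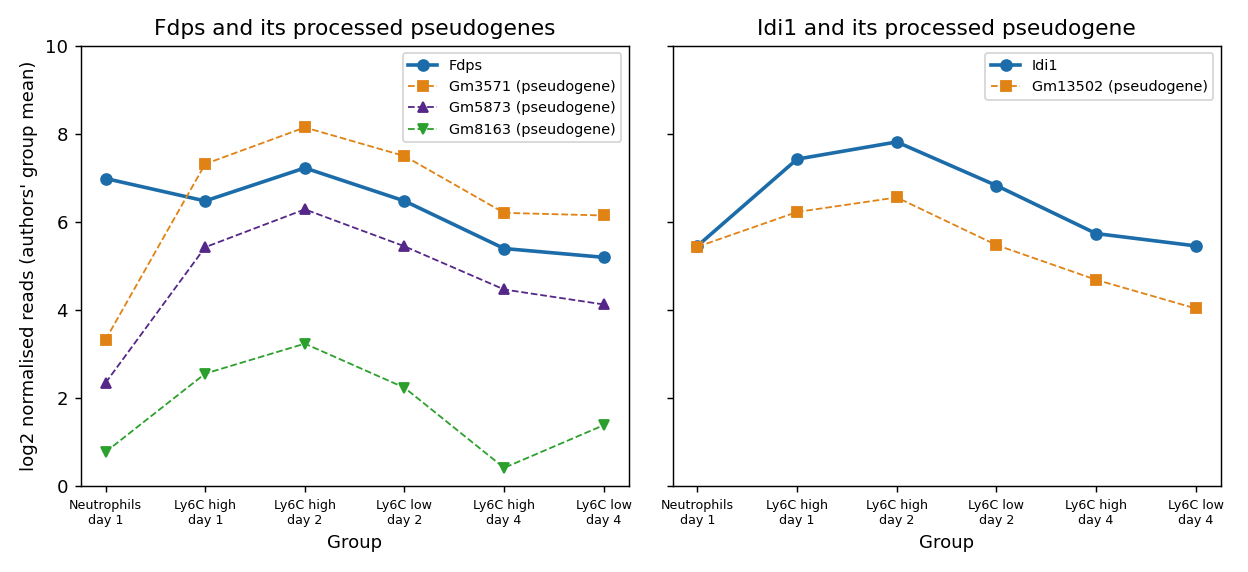
Lines show the authors' log2 group means of Fdps (left) and Idi1 (right) with their processed pseudogenes over the 6 groups. Gm3571 and Fdps both peak in Ly6C high cells on day 2 (8.15 and 7.23), while in neutrophils Gm3571 is at 3.33 and Fdps at 6.99.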

How the data were processed

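The members and gene lists were chosen with earlier results of these data known. Per the submitters' processing notes TopHat2 2.0.7, Cufflinks 2.0.2 and the mm10 build were used; how reads were normalised is not given in the sources used here. Log2 normalised reads were deposited by the authors for 38087 genes, 1 mean for each of 6 groups of 17 labelled samples, so the planned limma fit, replicate errors and p-values could not be had.

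Some of the low values, times the number of samples, fell on ladders of whole reads (relative tolerance 1e-05). From these 1 read was worth 0.412 to 1.03 normalised units, which puts 31.2 to 77.6 reads behind a log2 value of 5. Counting errors were computed from those reads and cover counting only. Reads on the ladders were even numbers in 20.8 to 84.5% of cases, so that reads may have been counted in pairs in some libraries, which would enlarge these errors. The steps were checked on simulated data.

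A gene was compared where its log2 value was at least 5 in 1 of the groups, with no pseudocount, and folds are 2 to the power of the log2 difference. There were 7 pairs of groups and 1 difference of differences. Genes with their values in all groups are those at least 2-fold apart in any pair and the regulators. Of the identifiers 36308 (95.3%) were in GENCODE M21 (GRCm38), which gave the coordinates. Copies were transcripts aligned by BLAST+ 2.17.0 over at least 200 bases at 95% identity. Pathway and marker lists held the genes counted in the text; those of Schwann cells, dendritic cells and lymphocytes are in the closing section. A gene of the sterol pathway list is not reported here and was left out of its counts. Python 3.11.15 with pandas 2.3.3 and numpy 2.4.6 was used. Alternatives were 2 rescalings, another pseudocount, other filters, protein-coding genes alone, a 1.5-fold limit and, chosen after the data were seen, adding pseudogene copies.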

Additional observations from a re-analysis of the deposited data

How the results depend on the processing

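No paired analysis was possible because the table holds 1 mean per group, which also prevented leaving out replicates. Without single samples, depth and the spread between mice limit every value above. Median-ratio rescaling and restriction to protein-coding genes left all 24 counts and medians within 1.5 times or within counting error. With a log2 minimum of 7, fewer genes were compared. Of 24 genes 4 were lower in Ly6C high cells than in neutrophils on day 1 (median −0.16), and 0 of 22 were higher from day 1 to day 2. On day 4, 1 of 20 was lower in Ly6C low than in Ly6C high cells. Between days 2 and 4 in Ly6C low cells, 1 of 21 was higher and 1 lower. With 1.5-fold in place of 2-fold, the genes compared were the same as at 2-fold. Shares of all genes are not given for either setting, so these counts show only how far the results depend on the limits. At 1.5-fold 3 were higher in Ly6C high cells than in neutrophils and 4 were higher from day 1 to day 2. In Ly6C high cells 11 were lower from day 2 to day 4 and 7 from day 1 to day 4. The same limit gave 3 higher and 6 lower in Ly6C low than in Ly6C high cells on day 2, 4 higher and 4 lower on day 4, and 4 higher and 2 lower for the difference between the subset differences. Quantile normalization moved the median of all genes to −0.13 from day 2 to day 4 and to −0.14 from day 1 to day 4 in Ly6C high cells, and the members' medians there to −0.60 and −0.38. It gave 0 higher from day 1 to day 2, 2 lower in Ly6C low cells on day 2, 2 higher on day 4 with a median of 0.11 in place of −0.09, and 2 higher for the difference between the subset differences. Under it the share of higher genes among all genes 2-fold apart went from 87.7 to 62.0% from day 2 to day 4 and from 81.6 to 56.9% from day 1 to day 4 in Ly6C high cells. That share went from 81.1 to 66.7% between days in Ly6C low cells, from 21.4 to 38.2% between the subsets on day 4 and from 13.7 to 30.4% for the difference between them; between neutrophils and macrophages it went from 50.8 to 38.2% with protein-coding genes alone. A pseudocount of 5 gave 1 higher from day 1 to day 2, and no filter gave 2 lower in Ly6C low cells on day 2. No difference of 2-fold or more changed sign under these alternatives. Fdps between Ly6C high cells of day 1 and neutrophils, below 2-fold at −0.51, did change sign with its copies added, to 1.07, which passes 2-fold.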

Other observations

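The further genes of fatty acid and glycerolipid synthesis were counted in other comparisons as well. On day 2, 2 of 23 compared were at least 2-fold lower in Ly6C low than in Ly6C high cells. None was higher, where 4.03% of all genes were lower and 3.71% higher. The lower genes were Dgat1 and Dgat2, which carry out the last step of triglyceride synthesis. Dgat1 had values of 10.17 in Ly6C high and 9.06 in Ly6C low cells on that day, and Dgat2 had 8.90 and 7.85. In Ly6C low cells between days 2 and 4, 3 of 23 were at least 2-fold higher and none was lower, beside 9.23% and 2.16% of all genes. The higher genes were Scd2 (9.17 and 10.42), the acyl-CoA synthetase Acsl3 (6.90 and 7.90) and Agpat3 (8.47 and 9.71). On day 1, 6 of the 24 further fatty acid genes compared were at least 2-fold lower in Ly6C high cells than in neutrophils, beside 16.1% of all genes, and Acsl1, another acyl-CoA synthetase, had values of 8.26 and 11.09.

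Summed log2 values of the other marker lists in Ly6C high cells on days 2 and 4 were 10.25 and 11.01 for Schwann cells, 9.51 and 10.9 for dendritic cells and 5.15 and 6.62 for lymphocytes. In Ly6C low cells they were 10.98 and 11.91, 8.30 and 8.85, and 5.02 and 6.27.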
